A study of Mus musculus with 5 samples.

Results

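Cells that expressed Cdkn2a while nearly lacking Cdx2, T and Tbx6 were examined in cultures of mouse epiblast stem cells (EpiSCs, pluripotent cells derived from the post-implantation epiblast) that had received no inhibitor of FGF signaling. All cultures had been differentiated for 3 days with 1 µM Chi (the GSK3 inhibitor Chir99021, a Wnt agonist) and 8 ng/ml BMP4, and single-cell transcriptomes were collected from 1 library per condition. The cells came from the library without FGF2 and from the library with 0.75 ng/ml FGF2. The other libraries held cultures with 3 or 12 ng/ml FGF2, and cultures with 30 nM AZD4547, an inhibitor of the kinase activity of FGF receptors, for which the labels give no FGF2 dose. EpiSCs of a single line were grown without feeders, so that every culture shares 1 genetic background.

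Members were chosen by raw counts of unique molecular identifiers (UMIs, which tag single captured transcripts). Barcodes with at least 2500 detected genes and at most 10% mitochondrial UMIs were kept, and a kept cell was a member if it held at least 3 UMIs of Cdkn2a, at most 1 of Cdx2, at most 7 of T and at most 1 of Tbx6. This gave 245 members among the 4421 kept cells of both libraries and the 10653 kept cells of the series. Without FGF2, 207 of 1696 kept cells were members (12.2%, exact binomial 95% interval from 10.7% to 13.9%). At 0.75 ng/ml FGF2, 38 of 2725 were members (1.39%, interval from 0.989% to 1.91%). Members held 8218146 and 1366424 UMIs in these libraries, and no member shared its barcode with a kept cell of another library. Because members and other cells were separated by measured counts, and each condition had 1 library, all differences are given as descriptions without a test. The intervals cover counting error only, and the spread between cultures is unknown.

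The Cdkn2a locus encodes 2 unrelated inhibitors of proliferation from alternative first exons. p16INK4a binds CDK4 and CDK6 and keeps the Rb family active, and p19ARF sequesters MDM2 and thereby stabilizes p53. The neighboring gene Cdkn2b encodes p15INK4b, which acts on the same kinases as p16INK4a and is known as a target of TGFβ signaling. In pluripotent cells and early embryos the locus is kept silent by Polycomb repression, and its expression is best known from cultured and senescent cells. T and Tbx6 mark the primitive streak and the mesoderm that arises from it, and Cdx2 marks posterior embryonic tissue as well as extraembryonic lineages. Counts from the 3′ ends of transcripts cannot separate the 2 Cdkn2a products, which share their last exons.

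The start sites of the locus are shown because Cdkn2a and its neighbor Cdkn2b were both high in the members. Cdkn2a lies at chr4:89274471-89294653 and Cdkn2b at chr4:89306299-89311039, both on the minus strand, with 11645 bases between them (GRCm38). The windows below run from 250 bases before to 50 bases after each annotated start, in transcript direction (RefSeq, GRCm38.p6, minus strand). The upstream Cdkn2a window at chr4:89294570-89294869 belongs to the first exon of p19ARF, the downstream one at chr4:89282143-89282442 to that of p16INK4a, and the Cdkn2b window lies at chr4:89310983-89311282. Capitals mark the letters GGGCGG, the core of the GC box, searched on both strands.
Cdkn2a, upstream start: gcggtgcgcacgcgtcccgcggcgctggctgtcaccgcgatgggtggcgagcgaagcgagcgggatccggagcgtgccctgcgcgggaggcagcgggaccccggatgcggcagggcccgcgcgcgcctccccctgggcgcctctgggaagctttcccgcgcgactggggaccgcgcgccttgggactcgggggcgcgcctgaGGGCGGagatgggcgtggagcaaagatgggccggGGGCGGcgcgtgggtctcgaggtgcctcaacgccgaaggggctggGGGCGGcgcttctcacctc
Cdkn2a, downstream start: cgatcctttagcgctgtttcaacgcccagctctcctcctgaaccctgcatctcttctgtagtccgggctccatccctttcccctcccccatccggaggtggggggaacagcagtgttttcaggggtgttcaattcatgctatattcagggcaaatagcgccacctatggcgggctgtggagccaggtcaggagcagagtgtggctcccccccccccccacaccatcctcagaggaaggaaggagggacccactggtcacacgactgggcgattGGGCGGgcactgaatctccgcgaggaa
Cdkn2b: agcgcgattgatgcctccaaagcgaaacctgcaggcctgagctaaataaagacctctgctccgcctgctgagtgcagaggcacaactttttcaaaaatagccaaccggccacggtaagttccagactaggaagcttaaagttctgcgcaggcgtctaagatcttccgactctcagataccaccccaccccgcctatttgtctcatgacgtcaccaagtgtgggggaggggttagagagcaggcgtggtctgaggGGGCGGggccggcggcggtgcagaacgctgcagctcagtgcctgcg

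GC content was 77% in the upstream Cdkn2a window, 60.3% in the downstream one and 57.7% in the Cdkn2b window. The upstream window held 3 matches of GGGCGG, starting at positions -48, -14 and 31 relative to the start site, and the other windows held 1 each, at 23 and 4. Of 32851 promoter windows of 300 bases in the same table, 35.7% held this motif. The letters GGAATG of the TEAD motif (in 14.7% of all windows) and TGANTCA of the AP-1 motif (in 7.81%) were searched likewise, do not overlap the GC box, and were found in none of the 3 windows. These matches describe the sequence alone.

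Of the genes used for the choice, Cdkn2a had a level of 277 counts per 1000000 summed UMIs (CPM) in the members without FGF2 and 260 CPM in those at 0.75 ng/ml, with 20.4 and 4.84 CPM in the other kept cells. Median Cdkn2a counts were 7 and 5 UMIs per member, and the highest were 49 and 55. Cdx2 was at 4.02 and 6.59 CPM in the members and at 127 and 191 CPM in the other cells. T was at 0.608 CPM in the members without FGF2 and was not detected in those at 0.75 ng/ml, whereas other cells held 31.1 and 94.2 CPM. Tbx6 was at 0.122 and 2.2 CPM in members and at 6.83 and 11.7 CPM in other cells. Most members lay well inside the limit on T, as 203 of 207 and 38 of 38 had no T UMI. No Cdx2 UMI was found in 174 and 29 members, and 33 and 9 lay at the Cdx2 limit of 1 UMI. At the Cdkn2a limit, 34 and 12 members had exactly 3 UMIs, and 47 and 23 cells within the other limits had exactly 2 and stayed outside. A further 35 and 6 cells were left out by a Cdx2 count of 2. In addition, 78 and 23 cells had at least 3 Cdkn2a UMIs but were outside the limits of Cdx2, T or Tbx6.

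The same limits were met by 57.0% of the cells in the AZD4547 library (970 of 1701, interval from 54.6% to 59.4%), 0.894% at 3 ng/ml FGF2 (19 of 2125) and 0.831% at 12 ng/ml FGF2 (20 of 2406). The share thus fell from the AZD4547 library through the library without FGF2 to the FGF2 libraries, where the intervals of 0.75, 3 and 12 ng/ml overlapped. A smaller share of cells was low in Cdx2, T and Tbx6 once FGF2 was present. These were 41.9% of kept cells without FGF2 (710 cells) and 96.6% in the AZD4547 library (1644 cells). At 0.75, 3 and 12 ng/ml they were 16.9% (461 cells), 6.92% (147 cells) and 7.98% (192 cells). Among these low cells, at least 3 Cdkn2a UMIs were found in 29.2% without FGF2, 8.24%, 12.9% and 10.4% at the 3 FGF2 doses in rising order, and 59.0% in the AZD4547 library. Members were deeper than the cells they are compared with, at medians of 33468 against 29098 UMIs without FGF2 and 30093.5 against 27478 UMIs at 0.75 ng/ml (a minimum of 3 UMIs favors deep cells). When every cell was thinned to 10000 UMIs, 115 of 1679 cells (6.85%) met the limits without FGF2, 15 of 2706 (0.554%) at 0.75 ng/ml and 695 of 1662 (41.8%) in the AZD4547 library. The median mitochondrial share was alike in members and others, with 3.95% against 4.14% without FGF2 and 4.10% against 3.96% at 0.75 ng/ml.

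**Figure D1:**
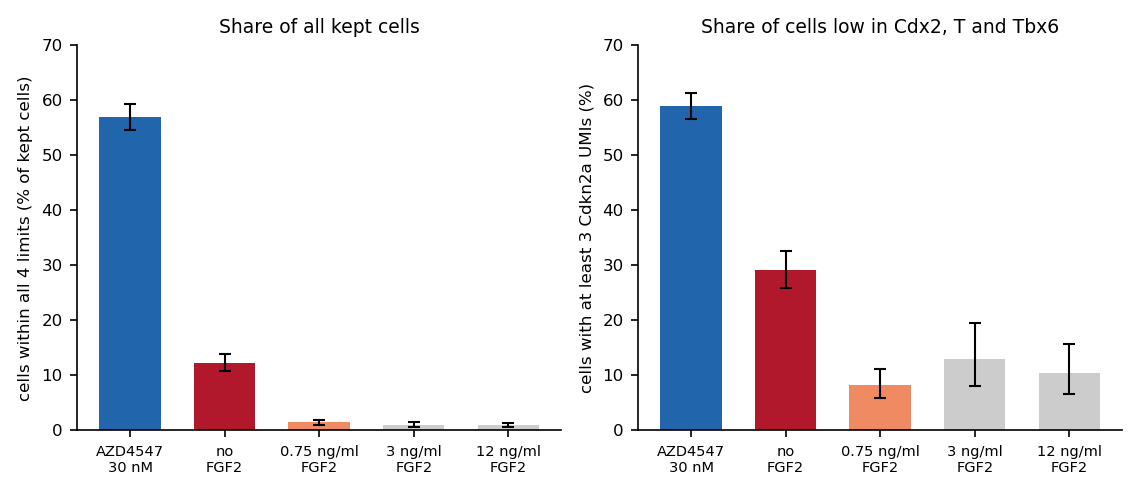
Share of kept cells within all 4 limits (left, in percent of kept cells) and share of cells with at least 3 Cdkn2a UMIs among cells low in Cdx2, T and Tbx6 (right, in percent), for the 5 libraries, with exact binomial 95% intervals as error bars. The AZD4547 library stands at 57.0% on the left, the library without FGF2 at 12.2%, and the libraries with FGF2 below 2%.

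Genes with at least 50 CPM in either group and a ratio of at least 2 were counted as different in level. Without FGF2, 223 genes were higher and 77 lower in the members than in the other kept cells, of 3311 genes at this level (9.06%). At 0.75 ng/ml FGF2, 322 genes were higher and 84 lower of 3397 (12%), or 258 higher and 115 lower with TMM scaling, which shifted the log2 ratios of this comparison by -0.11. Members with at least 5 Cdkn2a UMIs gave 341 higher and 133 lower genes instead. The libraries had 191 of the higher genes in common, which is 85.7% of those without FGF2 and 59.3% of those at 0.75 ng/ml. Of the lower genes 46 were in common, 59.7% and 54.8%, and no gene was higher in one library and lower in the other. Cdkn2a, Cdx2, T and Tbx6 are not among these genes. As the members were chosen by Cdkn2a, Cdx2, T and Tbx6 counts, genes that follow these 4 genes from cell to cell had to differ, and the numbers describe how far the chosen cells stood apart.

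**Figure D2:**
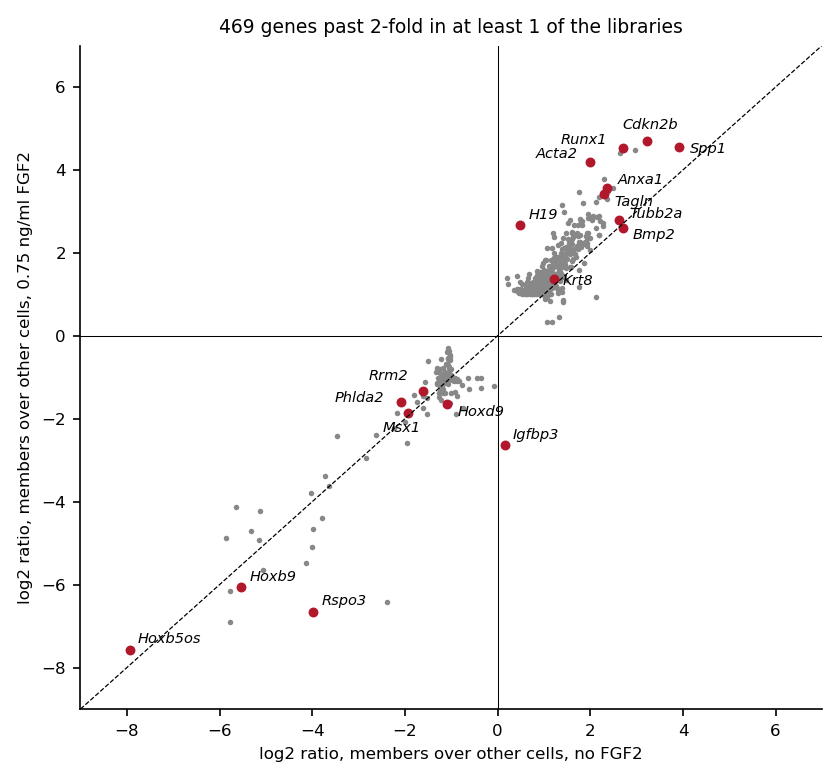
Log2 ratio of members over other kept cells without FGF2 (horizontal) and at 0.75 ng/ml FGF2 (vertical), for 469 genes past 2-fold in at least 1 of the libraries, 1 point per gene with selected genes in red, the dashed line marking equal ratios. Spp1, Cdkn2b and Runx1 lie at the upper right and Hox genes and Rspo3 at the lower left.

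Cdkn2b, the neighboring gene that encodes p15INK4b, was at 179 CPM in the members without FGF2 and 112 CPM in those at 0.75 ng/ml, at 19.2 and 4.33 CPM in the other cells of these libraries, and at 177 CPM in the AZD4547 library. Members were thus far above the other cells, by 9.36-fold without FGF2 (interval from 8.62 to 10.2) and 25.9-fold at 0.75 ng/ml (from 21.2 to 31.4). They were at the level of the AZD4547 library without FGF2 and below it at 0.75 ng/ml, and the AZD4547 cells within the same limits were higher than both, at 257 CPM. At 10000 UMIs per cell, a Cdkn2b UMI was found in 70.5% of members and 9.92% of other cells without FGF2, and in 55.3% and 2.7% at 0.75 ng/ml (unthinned, 91.8% and 18.0%, and 81.6% and 6.25%). Thinning left out no member, and 17 and 19 of the other cells. In cells with more than 7 T UMIs and no Cdkn2a UMI, the share was 0% without FGF2 (36 cells, upper bound 9.74%) and 0.709% at 0.75 ng/ml (282 cells), at median depths of 38858.5 and 32289.5 UMIs. Because these cells were chosen without Cdkn2a, they give no independent background for its neighbor. Mtap, a gene of methionine salvage at chr4:89137122-89181081 on the plus strand, lies 93389 bases beyond Cdkn2a on the other side. Its level was 89.2 and 91.5 CPM in members, 68.7 and 71.4 CPM in other cells and 79.3 CPM in the AZD4547 library. The ratios of 1.3 and 1.28 for Mtap were small beside those of Cdkn2b.

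Other inhibitors of cyclin-dependent kinases differed less. Cdkn1a, which encodes p21 and is a target of p53, was at 252 and 199 CPM in members, 94.3 and 110 CPM in other cells and 330 CPM in the AZD4547 library, so that it was past 2-fold without FGF2 (2.67-fold) and not at 0.75 ng/ml (1.81-fold). Cdkn1b, encoding p27, was at 36.5 and 32.9 CPM in members against 27.4 and 24.2 CPM in others. Gene lists were read with a wider rule, a mean of both groups of at least 10 CPM and a ratio of at least 2, which 5.55% of 7961 genes met as higher and 3.08% as lower without FGF2, and 8.35% and 3.41% of 8026 genes at 0.75 ng/ml. Of the list of CDK inhibitors, cyclins and Rb family genes, Cdkn1a and Cdkn2b were higher and Ccne1 and Ccne2 lower among 15 measured genes of 18 without FGF2. At 0.75 ng/ml, Cdkn2b was higher and Ccne2 and Rbl1 lower among 14. Of p53 and its targets, 8 of 20 measured genes (24 in the list) were higher without FGF2 and 6 of 19 at 0.75 ng/ml, with none lower. The median log2 ratio of the measured genes was 0.90 and 0.80, while that of all genes was -0.01 and 0.05. Plk2, encoding a kinase induced by p53, was at 251 and 246 CPM in members and 62 and 34.4 CPM in others, and Mdm2, the ubiquitin ligase of p53, at 95.2 and 114 CPM against 46.9 and 43.1 CPM. Trp53 itself did not stand apart, at 191 and 198 CPM in members and 200 and 214 CPM in others.

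Some genes of the cell cycle were lower in members and none of those listed was higher. Of 18 S phase genes, 8 were lower without FGF2 and 6 at 0.75 ng/ml, with medians of -0.96 and -0.93. Rrm2, a subunit of ribonucleotide reductase, was at 47.3 and 60 CPM in members, 144 and 150 CPM in other cells and 65 CPM in the AZD4547 library, which is 3.05-fold and 2.5-fold lower than in the other cells. Of 18 G2/M genes, 4 were lower without FGF2 and 2 at 0.75 ng/ml, with medians of -0.79 and -0.42. Mki67, which marks cycling cells, was at 118 CPM in members and 234 CPM in others without FGF2, and at 214 and 223 CPM at 0.75 ng/ml. The summed levels of the latter library thus did not differ by more than counting error (1.04-fold lower, interval from 0.926 to 1.17). Members of that library were uneven, at 341 CPM with 3 to 4 Cdkn2a UMIs, 159 CPM with 5 to 9 and 78.8 CPM with 10 or more. In cells thinned to 10000 UMIs, a Mki67 UMI was found in 39.1% of members and 69% of others without FGF2, and in 50% and 69.1% at 0.75 ng/ml. Mki67 was thus detected in many of the members.

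Genes of the actin cytoskeleton formed the largest group of higher genes by summed level. Of 19 genes of smooth muscle and contractile actin, 18 were measured in each library, and 13 were higher without FGF2 and 17 at 0.75 ng/ml, with none lower and medians of 1.30 and 1.90. Their summed level was 12284 CPM in members against 4417 CPM in other cells without FGF2, and 11364 against 2851 CPM at 0.75 ng/ml. Tpm1, a tropomyosin, was the most abundant, at 3686 and 3527 CPM in members and 3820 CPM in the AZD4547 library. Tagln, which binds actin filaments and marks smooth muscle and early mesenchyme, was at 1498 and 963 CPM in members, 305 and 89.9 CPM in other cells and 1915 CPM in the AZD4547 library (4.91-fold and 10.7-fold above the other cells). Acta2, smooth muscle actin, was at 394 and 326 CPM in members, 98.2 and 17.8 CPM in others and 1008 CPM in the AZD4547 library. Summed over members, Acta2 was thus above the other cells of their libraries and below the AZD4547 library. It was uneven among members, with a median of 83.4 CPM per cell without FGF2 and 0 CPM at 0.75 ng/ml, where a UMI was found in 44.7% of members and the 10 cells with most Cdkn2a held 707 CPM. Tagln also varied widely, and ran from 0 CPM at the 10th percentile through a median of 454 CPM to 4057 CPM at the 90th percentile of the 207 members without FGF2. The whole list was less variable, with a median per cell of 10392 CPM in members and 2080 CPM in others.

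Annexins, S100 proteins and extracellular matrix genes went in the same direction. Of the annexin, S100 and Ahnak list (16 genes), 12 of 14 measured genes were higher without FGF2 and 12 of 13 at 0.75 ng/ml. Anxa1, encoding a calcium-dependent phospholipid-binding protein, was at 202 and 173 CPM in members, 39.2 and 14.7 CPM in others and 152 CPM in the AZD4547 library. Of the matrix list (20 genes), 12 of 16 measured genes were higher in each library. Fn1, fibronectin, was at 861 and 994 CPM in members, 197 and 165 CPM in others and 826 CPM in the AZD4547 library, or 4.38-fold and 6.01-fold higher in members. Thbs1 and Ccn4, secreted matrix proteins that are known targets of TGFβ and of Wnt signaling respectively, were at 129 and 120 CPM and at 58.3 and 73.2 CPM in members. In other cells Thbs1 was at 22.8 and 10.2 CPM, and Ccn4 at 9.28 and 3.44 CPM. Spp1, osteopontin, had the largest ratio by the smaller value of both libraries among genes with at least 50 CPM in each, at 105 and 79.8 CPM in members, 6.94 and 3.41 CPM in others and 91.7 CPM in the AZD4547 library (15.1-fold and 23.4-fold). At 10000 UMIs per cell, a Spp1 UMI was found in 32.4% and 26.3% of members and in 2.92% and 1.54% of other cells (unthinned, 44.9% and 42.1%, and 6.04% and 3.35%), and cells without a UMI may still express the gene.

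Epithelial and mesenchymal genes were high side by side. Vim, vimentin of mesenchymal filaments, was at 876 and 904 CPM in members, 226 and 117 CPM in others and 1203 CPM in the AZD4547 library. Krt8, a keratin of simple epithelia, was at 1612 and 1516 CPM in members, 690 and 584 CPM in others and 942 CPM in the AZD4547 library. Cdh1, the epithelial cadherin, was at 154 and 156 CPM in members, 83.4 and 73.2 CPM in others and 85.8 CPM in the AZD4547 library. Krt8 and Cdh1 were thus higher in members than in both the other cells and the AZD4547 library, whereas Vim was between them. Of 10 genes of the epithelial to mesenchymal transition, 7 were measured in each library, and Zeb2, Vim and Fn1 were higher. Of keratins and junction genes, 5 of 17 were higher without FGF2 and 6 of 16 at 0.75 ng/ml.

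Both cadherins were detected in the same member more often than in other cells. UMIs of Cdh1 and of Cdh2, the mesenchymal cadherin, were found together in 46.4% of members without FGF2 (interval from 39.4% to 53.4%) and 18.3% of other cells, and in 36.8% and 16.4% at 0.75 ng/ml. Cdh1 alone was found in 44.0% and 50% of members, and Cdh2 alone in 8.70% and 10.5%. In the AZD4547 library, 20.6% of all cells and 29.8% of the cells within the same limits had both, and 36.7% and 39.4% had Cdh2 alone. These shares are of unthinned cells, and members were deeper than others, as given above. Members with both cadherins were the deepest class, at a median of 37170.5 UMIs without FGF2 and 39640 UMIs at 0.75 ng/ml. Those with Cdh1 alone had 32475 and 27074 UMIs, and those with Cdh2 alone 31336 and 33326.5 UMIs. Within the members without FGF2, the 91 cells with Cdh1 alone had 821 CPM of Tagln and 201 CPM of Vim, the 96 cells with both had 2111 and 1159 CPM, and the 18 cells with Cdh2 alone had 1556 and 2863 CPM. Krt8 went the other way, at 2004, 1405 and 794 CPM in these classes. Cdkn2b was high in each of them, at 138, 210 and 236 CPM.

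Runx1, a transcription factor required for blood formation, was among the genes with the largest ratios, at 207 and 171 CPM in members, 31.9 and 7.43 CPM in other cells and 189 CPM in the AZD4547 library (6.49-fold and 23-fold above the other cells). The defining markers of blood and endothelium were at or near 0. In the members, Gata1, Tal1, Cdh5 and Etv2 had no UMI, Kdr was at 1.95 and 3.66 CPM, and Pecam1 at 6.21 and 2.2 CPM. Of the 12 genes of the hemato-endothelial list, 2 and 1 were measured, and Runx1 was the only one that was higher in either library. Of the mesenchyme and extraembryonic mesoderm list (16 genes), 8 of 11 measured genes were higher without FGF2 and 8 of 12 at 0.75 ng/ml, namely Acta2, Tagln, Pmp22, Ahnak, Bmp4, Vim, Cald1 and Krt8 in each. Cald1 was the most abundant of them, at 1930 and 1838 CPM. Several of these genes are also in the contractile list and are no separate evidence. Hand1, a transcription factor of extraembryonic mesoderm, was at 134 and 65.1 CPM in members and 77.6 and 45.6 CPM in others, short of the 2-fold limit. Of the amnion and surface ectoderm list (21 genes), 4 of 18 measured genes were higher without FGF2, all of them keratins, and Tfap2c and Msx1 were lower. In the library with 0.75 ng/ml, 5 of 17 were higher and Msx1 lower. Msx1, a homeobox gene that responds to BMP, was at 40.5 and 65.9 CPM against 155 and 240 CPM. Of the trophoblast list (18 genes), Tfap2c, Ascl2 and Phlda2 were lower and none higher among 5 measured genes without FGF2. Gata3 and Plac1 were higher and Phlda2 lower among 4 at 0.75 ng/ml, with a median of 0.06. The level of Phlda2, an imprinted gene of placental growth, was 165 and 157 CPM in members against 701 and 476 CPM in others. Of the presomitic and somitic mesoderm list, the 2 and 4 measured genes of 13 were all lower. No gene of the definitive and visceral endoderm list was at a level to be measured. Cdkn2a is not a marker of a single cell type, and the cells are called here by their counts.

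Nefl, which encodes a neurofilament subunit, was at 94.7 and 142 CPM in members, 18.2 and 12.7 CPM in other cells and 33.9 CPM in the AZD4547 library. Tubb2a, a β-tubulin, was at 131 and 76.8 CPM in members and 21.2 and 11.2 CPM in others, and its count is uncertain because a near-identical copy, Tubb2b, lies beside it. Of the neurectoderm list (10 genes), Tubb3 was higher among 3 measured genes without FGF2, with none lower. With 0.75 ng/ml, Tubb3 was higher and Sox2 and Pax3 lower among 4, with a median of -0.95.

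**Figure D3:**
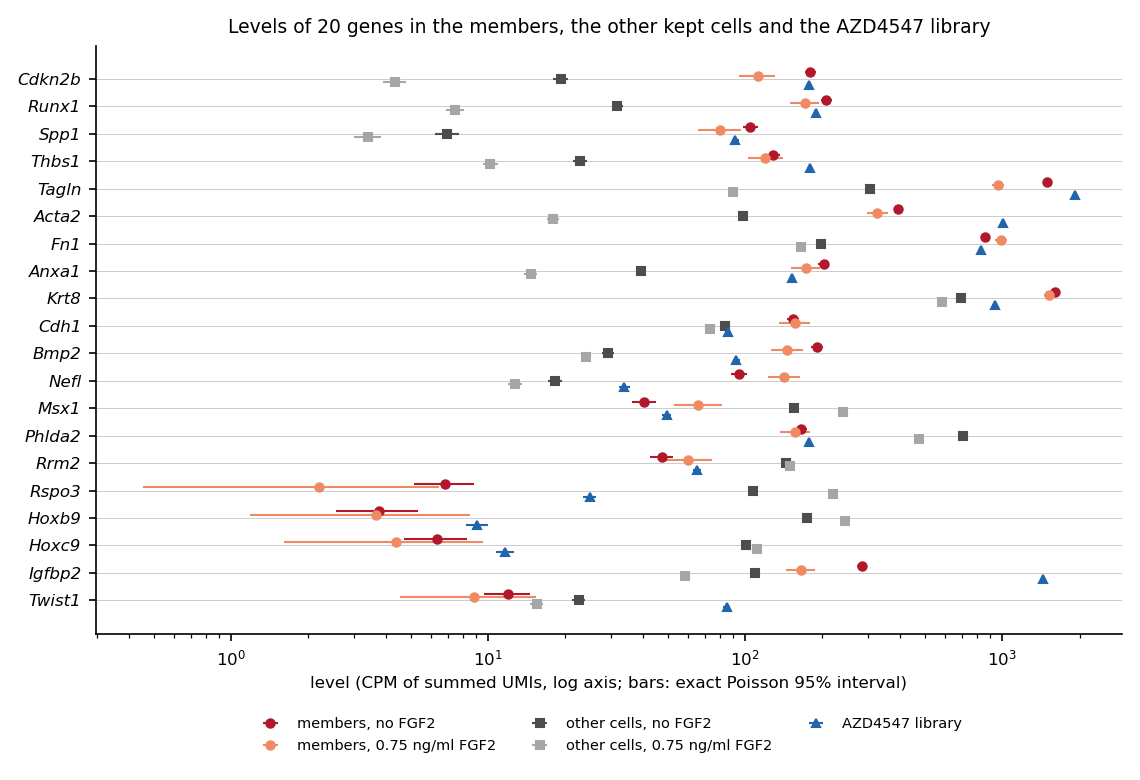
Levels of 20 genes in CPM of summed UMIs (logarithmic axis) with exact Poisson 95% intervals, for members (circles) and other kept cells (squares) of the libraries without FGF2 and with 0.75 ng/ml FGF2, and for the AZD4547 library (triangles). From Cdkn2b to Anxa1 the members lie above the other cells, from Msx1 to Hoxc9 they lie below the other cells, and for Igfbp2 and Twist1 they lie below the AZD4547 library.

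Among secreted signals, Bmp2 was at 191 and 146 CPM in members, 29.3 and 24.1 CPM in other cells and 92.5 CPM in the AZD4547 library (6.49-fold and 6.03-fold above the other cells). Bmp4 was at 145 and 198 CPM in members, 64.6 and 55.7 CPM in others and 86.5 CPM in the AZD4547 library. Both ligands were thus higher in the members than in the other cells and in the AZD4547 library as a whole. In the AZD4547 cells within the same limits, Bmp2 was at 132 CPM and Bmp4 at 98.9 CPM. With 10 or more Cdkn2a UMIs, Bmp2 was at 305 CPM without FGF2, 200 CPM at 0.75 ng/ml and 169 CPM in the AZD4547 library. The protease gene Bmp1 and the antagonist gene Nog were also higher, at 84 and 92.2 CPM and at 31 and 38.1 CPM in members, against 22.2 and 16.5 CPM and 9.98 and 7.07 CPM in others. These 4 were the genes of the Bmp ligand, receptor and antagonist list that were higher, of 7 and 8 measured and 16 in the list. Their target genes did not follow as a group. Of the BMP target list (13 genes), Smad7 was higher and Msx1 lower among 9 measured genes without FGF2, and Smad7 and Gata3 higher and Msx1 lower among 8 at 0.75 ng/ml. Id1 was at 101 and 114 CPM in members against 175 and 189 CPM in others.

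The FGF targets Etv4 and Etv5 were lower in members than in the other cells, but not as low as in the AZD4547 library. Etv4, a transcription factor induced by FGF signaling, was at 5.23 and 5.12 CPM in members, 17.7 and 26.9 CPM in others and 1.38 CPM in the AZD4547 library. Etv5 was at 5.23 and 13.2 CPM in members, 21.2 and 31.9 CPM in others and 2.45 CPM in the AZD4547 library. Of 16 FGF targets, Dusp5 and Ier3 were higher and Dusp6, Etv4 and Etv5 lower among 14 measured without FGF2, and Dusp5, Ier3 and Myc higher and Etv4 and Etv5 lower among 13 at 0.75 ng/ml. Fgf8, a ligand of the primitive streak, was at 0.852 and 1.46 CPM in members (7 and 2 UMIs) and 28.5 and 73.5 CPM in others. Of 12 Wnt targets, Dkk1 was higher and Sp8 lower in each library.

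Among genes with at least 50 CPM in the members or the other cells of each library, Hox genes and transcripts of their clusters had most of the lowest ratios. Of 39 Hox genes, 17 were measured without FGF2 and all of these were lower, and 17 of 18 at 0.75 ng/ml, with medians of -4.00 and -4.51. The summed level of the 39 genes was 114 CPM in members against 1169 CPM in others without FGF2, and 121 against 1504 CPM at 0.75 ng/ml. It was 128 CPM in the AZD4547 library, with 63.8 CPM in its cells within the limits and 243 CPM in those outside. Hoxb9, which marks trunk and tail, was at 3.77 and 3.66 CPM in members (31 and 5 UMIs), 175 and 246 CPM in others and 9.07 CPM in the AZD4547 library. Members were 46.3-fold lower than others without FGF2 (interval from 32.6 to 68.3). In AZD4547 cells within the limits, Hoxb9 was at 0.94 CPM with 3 to 4 Cdkn2a UMIs, 2.33 CPM with 5 to 9 and 2.30 CPM with 10 or more. Hoxb5os, an antisense transcript of the HoxB cluster, had 4 and 1 UMIs in members (0.487 and 0.732 CPM) and 119 and 139 CPM in others, and was 245-fold lower without FGF2 (from 95.8 to 901). Hoxaas3, of the HoxA cluster, was at 4.14 and 2.93 CPM against 225 and 348 CPM. Hoxb8, Hoxa7, Hoxa9, Hoxc6, Hoxb4 and Hoxc9 completed the 10 lowest of these genes together with Rspo3, a Wnt enhancer of the presomitic mesoderm, at 6.81 and 2.2 CPM in members and 108 and 220 CPM in others. Genes that reached this level in 1 library only were not ranked, and some were as low, such as Fgf8, given above (log2 ratio of -5.07 without FGF2). Hoxd9 was less reduced than most. At 39.3 and 32.9 CPM in members, 83.7 and 102 CPM in others and 12.6 CPM in the AZD4547 library, it was the most abundant Hox gene of the members and exceeded the AZD4547 library by 3.12-fold and 2.61-fold. Cdx2 is known as an activator of posterior Hox genes, and its count was one of the limits.

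Members were next compared with the cells of the same library that met the limits of Cdx2, T and Tbx6 but had fewer than 3 Cdkn2a UMIs (503 cells without FGF2 and 423 at 0.75 ng/ml), so that the Cdkn2a limit alone separates both groups. In this comparison 139 genes were higher and 38 lower of 3260 without FGF2 (5.43%), or 96 higher and 54 lower when the compared cells were weighted to the depths of the members. At 0.75 ng/ml, 158 were higher and 18 lower of 3303 (5.33%), or 102 and 17 with the same weighting. With members of at least 5 Cdkn2a UMIs, 148 were higher and 49 lower in that library. The median size of the log2 ratio was 0.22 in both libraries, against 0.29 and 0.32 for the other kept cells. Cdkn2b was at 18 and 9.15 CPM in these cells, Runx1 at 28.6 and 14.5 CPM, Spp1 at 2.52 and 7.73 CPM, and Bmp2 at 24.2 and 27.1 CPM, all far below the members. Keratins did not separate the groups, as none and 1 of 17 measured genes of the keratin and junction list were higher and Krt8 was at 1088 and 1248 CPM. Genes of the epithelial to mesenchymal transition did, with 5 of 7 and 5 of 5 measured genes higher, Cdh2 among them (50.1 and 43.2 CPM in members against 20.7 and 15.2 CPM). Of the contractile list, 7 of 18 and 12 of 17 genes were higher, and of the annexin list 9 of 14 and 8 of 14. The background of the wider rule was 3.61% and 4.24% for higher and 1.55% and 1.53% for lower genes. The p53 list differed between the libraries, with 8 of 20 genes higher without FGF2 and 1 of 19 (Plk2) at 0.75 ng/ml, a difference that was not tested. Phlda2 was at 1328 and 584 CPM in the cells low in Cdkn2a, which is above both the members and the whole of the other cells. Trophoblast genes as a list were lower in members, with 5 of 6 and 3 of 5 measured genes. Hoxb9, at 30.3 and 65.1 CPM in these cells, was lower than in other kept cells and still higher than in members.

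Levels of several genes, among them Cdkn2b, Runx1 and Tagln, followed the number of Cdkn2a UMIs without FGF2, beyond the limit of 3. Among the 710 cells without FGF2 low in Cdx2, T and Tbx6, Cdkn2b was at 9.68 CPM in the 367 cells with no Cdkn2a UMI, 29.6 CPM with 1, 50 CPM with 2, 99.7 CPM with 3 to 4, 146 CPM with 5 to 9 and 253 CPM in the 81 cells with 10 or more. Runx1 went from 15.4 CPM to 271 CPM over the same classes and Tagln from 283 to 1888 CPM. Phlda2 went down throughout, from 1673 to 61.8 CPM, and Rrm2 was at 150 CPM in the first class, 37.4 CPM with 5 to 9 UMIs and 48.7 CPM in the last class. Tagln was an exception below the limit, at 853 CPM with 1 Cdkn2a UMI and 772 CPM with 2. Krt8 and Cdh1 did not follow the order within the members, as Krt8 was at 1917 CPM with 5 to 9 UMIs and 1391 CPM with 10 or more, and Cdh1 at 185 and 123 CPM. Gapdh, a glycolytic enzyme, stayed between 2795 and 3019 CPM. By ratio, Spp1 and Bmp2 differed more between the classes next to the limit than between other neighboring classes. Spp1 was at 6.75 CPM with 2 Cdkn2a UMIs, 42.2 CPM with 3 to 4, 52.0 CPM with 5 to 9 and 181 CPM with 10 or more. Bmp2 went from 27.7 to 97.1 CPM between 2 and 3 to 4 UMIs, and from 111 CPM with 5 to 9 to 305 CPM with 10 or more. Fn1 had no larger step at the limit, with 274 to 539 CPM there and 154 to 308 CPM between 0 and 1 UMI. The classes also differed in depth, from a median of 25377 UMIs with no Cdkn2a UMI to 38938 UMIs with 10 or more, and the part of depth in the order was not tested. At 0.75 ng/ml the 3 member classes held 17, 11 and 10 cells, and the order was not kept, with 1002, 452 and 1445 CPM of Tagln and 154, 107 and 265 CPM of Runx1. Cdkn2b was at 70.3, 94.3 and 194 CPM in these classes.

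**Figure D4:**
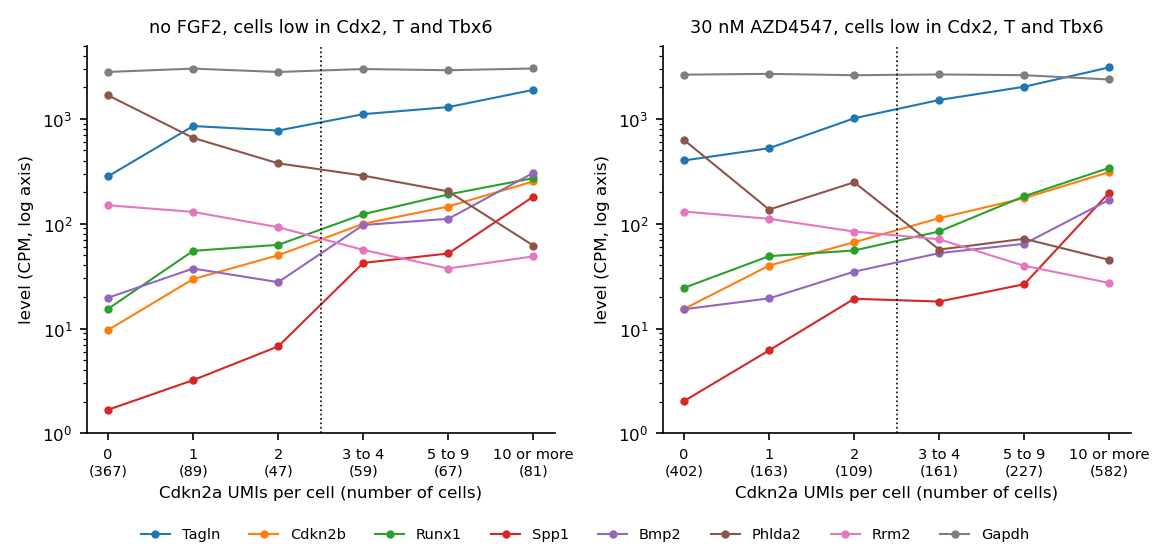
Levels of 8 genes in CPM (logarithmic axis) by the number of Cdkn2a UMIs per cell, for cells low in Cdx2, T and Tbx6 without FGF2 (left) and in the AZD4547 library (right), with the number of cells in brackets and the limit of the choice as a dotted line. Cdkn2b, Runx1 and Tagln are higher and Phlda2 and Rrm2 lower at high counts in both libraries, while Gapdh is nearly level.

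The members were then set against the AZD4547 library, whose kept cells held 47824660 UMIs at a median of 24408 per cell. Both comparisons share this library. Without FGF2, 13 genes were higher and 21 lower in members of 3140 (1.08%), and 96.1% of genes were within 1.5-fold. At 0.75 ng/ml, 36 were higher and 50 lower of 3297 (2.61%), or 23 and 59 with TMM scaling, and 89.3% were within 1.5-fold. The balance of this comparison turned with a ratio of at least 1.5, to 214 higher and 140 lower. The other kept cells of the same libraries stood farther off, with 331 of 3314 genes (9.99%) and 498 of 3364 genes (14.8%) past 2-fold. So did the cells low in Cdkn2a within the other limits, with 206 of 3287 (6.27%) and 268 of 3288 (8.15%). The median size of the log2 ratio against the AZD4547 library was 0.13 and 0.20 for members, 0.32 and 0.38 for other kept cells and 0.26 and 0.28 for the cells low in Cdkn2a. The choice of members fixes part of this order, since 57.0% of the AZD4547 cells met the same limits. The AZD4547 library is mixed, as 731 of its cells were outside the limits. In its cells within the limits, Runx1 was at 84.3 CPM with 3 to 4 Cdkn2a UMIs and 341 CPM with 10 or more. Members without FGF2 held 123 and 271 CPM in these classes, and members at 0.75 ng/ml 154 and 265 CPM. Against the 970 cells of that library within the limits, 47 of 3165 genes (1.48%) and 157 of 3336 genes (4.71%) were past 2-fold. The median size of this log2 ratio was 0.16 and 0.24. At 0.75 ng/ml, members were about as far from the cells low in Cdkn2a of their own library, with 5.33% of genes and a median size of 0.22. Cells low in Cdkn2a without FGF2 were about as near to the AZD4547 cells outside the limits, with 52 of 3168 genes (1.64%) past 2-fold and a median size of 0.15. Closeness to cells of the AZD4547 library that fall on the same side of the limits was therefore also seen in cells that are not members.

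The genes that separated members from the AZD4547 library as a whole were few. Prrx1 and Twist1, transcription factors of embryonic mesenchyme, were at 9.37 and 5.85 CPM and at 11.9 and 8.78 CPM in members, and at 77.8 and 84.9 CPM in the AZD4547 library (8.31-fold and 13.3-fold lower, and 7.12-fold and 9.67-fold lower). Igfbp2, which binds insulin-like growth factors, was at 284 and 165 CPM in members and 1441 CPM in the AZD4547 library. Gas1, a co-receptor for hedgehog ligands, was at 34.9 and 35.9 CPM against 228 CPM, and Crabp2, which binds retinoic acid in the cytoplasm, at 25.3 and 32.2 CPM against 128 CPM. Acta2 was 2.56-fold and 3.09-fold lower than in the AZD4547 library. At 10000 UMIs per cell, Igfbp2 was found in 58% and 36.8% of members and in 87.8% of cells of the AZD4547 library.

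On the higher side, Nefl exceeded the AZD4547 library by 2.79-fold and 4.19-fold. Krt19, a keratin of simple epithelia, was at 93.7 and 120 CPM in members, 30.6 and 21.7 CPM in other cells and 43.2 CPM in the AZD4547 library. Car2, a carbonic anhydrase, was at 51.2 and 142 CPM in members against 19.7 CPM in the AZD4547 library, and Peg10, an imprinted gene of the placenta, at 327 and 488 CPM against 130 CPM. Plgrkt, a plasminogen receptor, was at 85.1 and 106 CPM against 37 CPM. Unlike Nefl and Krt19, Car2 and Peg10 did not pass 2-fold against the other cells of either library. Lin28a, an RNA-binding protein of pluripotent and early embryonic cells, was at 99 and 151 CPM against 49.2 CPM, whereas Nanog had 4 UMIs in members without FGF2 and none in those at 0.75 ng/ml. Of the FGF targets, 6 of 11 measured genes were higher in members at 0.75 ng/ml than in the AZD4547 library, namely Spry1, Spred1, Spred2, Spred3, Dusp4 and Dusp6, and 1 was lower (Egr1), beside a background of 1.5% higher and 2.12% lower genes. Without FGF2 no gene of that list was past 2-fold with a mean of at least 10 CPM. Of 9 measured Wnt targets, Lef1, Tcf7, Sp5 and Ccnd1 were higher at 0.75 ng/ml, and Sp5 and Ccnd1 without FGF2, where the background was 0.464% higher and 0.904% lower genes.

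**Figure D5:**
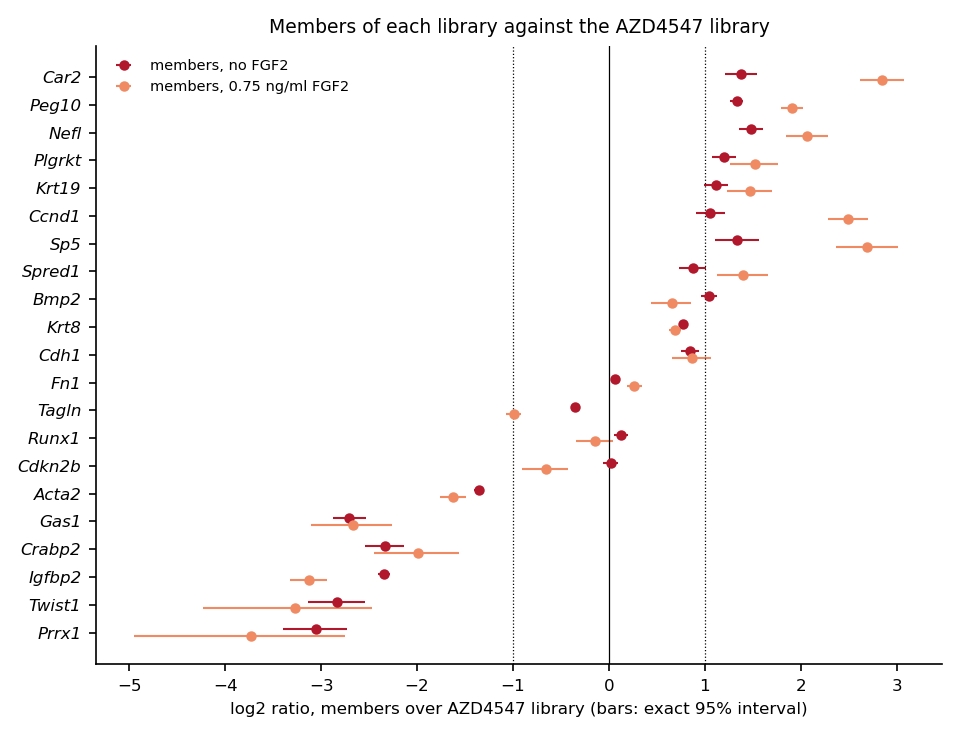
Log2 ratio of members over the AZD4547 library for 21 genes, for members without FGF2 (red) and at 0.75 ng/ml FGF2 (orange), with exact 95% intervals and dotted lines at 2-fold. Prrx1, Twist1, Igfbp2, Crabp2 and Gas1 are lower than in the AZD4547 library and Car2, Peg10, Nefl, Plgrkt and Krt19 higher. Fn1 and Runx1 are close to 0 against the whole library, which also holds cells outside the limits.

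Members of the 2 libraries differed little from each other. Both groups had been chosen by the same limits, which fixes part of this likeness. Without FGF2, 9 genes were higher and 8 lower than in members at 0.75 ng/ml, of 3238 (0.525%), with 96.6% of genes within 1.5-fold. Ccnd1, encoding cyclin D1, which activates the kinases that p15INK4b and p16INK4a inhibit, was at 61.3 CPM without FGF2, 166 CPM at 0.75 ng/ml and 29.4 CPM in the AZD4547 library. Sp5, a Wnt target, was at 27.5, 70.3 and 10.9 CPM in the same order. H19, an imprinted non-coding RNA, was at 40 CPM without FGF2 and 84.9 CPM at 0.75 ng/ml. Among the higher genes without FGF2, Hand1 was at 134 against 65.1 CPM, Tubb3 at 141 against 70.3 CPM and Bambi, a BMP pseudoreceptor, at 96.4 against 44.6 CPM. The values at 0.75 ng/ml rest on 38 cells, and with 1 library per condition an effect of FGF2 and a chance difference of cultures cannot be told apart.

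Factors secreted by senescent cells were seen in part. Of the list of 21 such genes, 9 of 13 measured genes were higher without FGF2, with Cxcl12 lower, and 7 of 11 at 0.75 ng/ml, with Igfbp3 lower. Igfbp5 was at 261 and 212 CPM in members, 114 and 37.8 CPM in others and 237 CPM in the AZD4547 library. Timp1, an inhibitor of matrix proteases, was at 47.7 and 56.4 CPM in members and 10.8 and 7.71 CPM in others. Ccl2, a chemokine, was at 37 and 15.4 CPM in members and 3.44 and 0.511 CPM in others, and at 2.09 CPM in the AZD4547 library. Il6, an interleukin typical of such secretion, had no UMI in any of these groups. Of 16 Polycomb regulators, 12 were measured, and none passed 2-fold without FGF2, while Cbx2 was lower at 0.75 ng/ml. Ezh2, the methyltransferase of the complex that silences the locus, was at 150 and 201 CPM in members, 247 and 277 CPM in others and 161 CPM in the AZD4547 library. Signs of RNA quality moved with the groups. The 94 ribosomal, mitochondrial and nuclear RNA genes of that list summed to 285035 CPM in members and 321178 CPM in others without FGF2, and to 275994 and 329592 CPM at 0.75 ng/ml. Of 91 measured genes, Neat1, a nuclear RNA, was past 2-fold without FGF2, at 36 against 15.4 CPM, and none was at 0.75 ng/ml (30 against 16.9 CPM for Neat1). Malat1, a nuclear RNA and the most abundant of them, was at 9325 and 11248 CPM in members, 5649 and 5825 CPM in others and 10975 CPM in the AZD4547 library, and the part of these RNAs in the results was not tested.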

How the data were processed

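The authors deposited raw, unnormalized counts of UMIs for 5 droplet libraries (10x Genomics, 3′ ends), 1 per condition, for the barcodes called as cells. Cell Ranger 5.0.1 is named by the file headers and an earlier version by the study's methods. Reads had been aligned to mm10 by the authors. The study's filters on cells had not yet been applied to these counts. Gene positions are from GENCODE on GRCm38 (mouse release 21).

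Barcodes with at least 2500 genes and at most 10% mitochondrial UMIs were kept, 10653 of 15375, with 321559590 UMIs. They numbered 1696 of 2407 without FGF2, 2725 of 3829 at 0.75 ng/ml, and 1701 of 2635 in the AZD4547 library, with 56812075, 81538748 and 47824660 UMIs. Levels are UMIs summed over the cells of a group, per 1000000, with exact Poisson intervals, and ratios have exact conditional intervals, all at 95% and for counting error only. Genes named were the lists' members, Cdkn2b and Mtap, the 10 highest and 10 lowest genes against other kept cells and the 5 highest and 5 lowest against the AZD4547 library, by the smaller ratio of both libraries and with at least 50 CPM. Further genes differing between the members of the libraries were named after their values were seen. Car2 and Ccnd1 are in the sets above, and their differences between libraries were also picked out after their values were seen. Members and all 42 gene lists were chosen with earlier results of these data known. The rule for lists, the comparisons of the cells low in Cdkn2a with the AZD4547 library, the classes of Cdkn2a UMIs and the cadherin classes were added after seeing the data. No test between conditions or cells was run. Doublets were not removed, as the methods describe no such filter, and an alternative left out the 5% of cells with most UMIs. Other alternatives changed the mitochondrial limit, the Cdkn2a limit, the weighting and depth of cells, the scaling (TMM factors of edgeR 4.0.16 in R 4.3.3), the minimum level and the minimum ratio. Python 3.11.15, NumPy 2.4.6, SciPy 1.17.1, pandas 2.3.3 and Matplotlib 3.10.9 were used. The counting of genes past 2-fold was tested on simulated data.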

Additional observations from a re-analysis of the deposited data

Results flagged for a closer look

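Cells within the limits also occurred in libraries that the comparisons do not use, with 19 cells at 3 ng/ml FGF2 and 20 cells at 12 ng/ml FGF2. Summed over these few cells, Cdkn2b was at 124 and 199 CPM, Runx1 at 203 and 345 CPM and Spp1 at 188 and 593 CPM, while Acta2 was at 140 CPM (112 UMIs) and 1.3 CPM (1 UMI). Hoxb9 was at 5.0 and 3.89 CPM, from 4 and 3 UMIs. Ccnd1 was at 407 and 517 CPM, above the members without FGF2 (61.3 CPM) and at 0.75 ng/ml (166 CPM).

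Flagged here were 5 genes in which the members were above the other kept cells of one library and below those of the other. Neither interval included equal levels in these genes, and they give no share of all measured genes. The intervals cover counting error only, and no spread between cells or cultures. The log2 ratio of members over other cells without FGF2 and at 0.75 ng/ml was -0.55 and 0.86 for Car2, and -0.83 and 0.38 for Ccnd1. It was 0.14 and -0.21 for Psme1 and 0.16 and -0.36 for Psme2, both of the proteasome activator. For Rpl10, of the ribosome, it was 0.058 and -0.13. These differences between libraries were not tested.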

How the results depend on the processing

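No paired analysis was possible because each condition had 1 library. No log2 ratio or list median past 2-fold changed its sign under the alternatives run, while smaller ones did, in 236 of 5292 values for genes (up to 0.41 in size as reported) and 30 of 604 for lists. Without FGF2 the share of members was 15.0% with at least 2 Cdkn2a UMIs, 8.73% with at least 5 and 6.85% in thinned cells, and at 0.75 ng/ml it was 2.24%, 0.771% and 0.554%. In the order without FGF2, then 0.75 ng/ml, a minimum of 10 CPM gave 845 and 1217 genes past 2-fold against other kept cells, 153 and 436 against the AZD4547 library, 526 and 644 against cells low in Cdkn2a, and 174 between the members of the libraries. A ratio of at least 1.5 gave 774 and 879, 123 and 354, 515 and 484, and 110. The balance of directions turned in places. Against the AZD4547 library at 0.75 ng/ml, 36 higher and 50 lower genes became 214 and 140 with a ratio of 1.5, and between the members of the libraries 9 higher and 8 lower became 49 and 61, or 82 and 92 with 10 CPM. With at least 2 Cdkn2a UMIs, 117 genes were past 2-fold against cells low in Cdkn2a at 0.75 ng/ml, in place of 176. These settings count more genes or choose other cells by construction. The remaining shares and total counts stayed within their interval or within 1.5 times the value reported, but counts in 1 direction at 0.75 ng/ml moved further. Against other kept cells, the 84 lower genes became 133 with at least 5 Cdkn2a UMIs. Against cells low in Cdkn2a, the 18 lower genes became 49 with that limit, and the 158 higher became 102 with weighting to the depths of the members and 104 with at least 2 Cdkn2a UMIs. With TMM scaling the 36 genes higher than in the AZD4547 library became 23. Of the log2 ratios of single genes over all settings, 2155 stayed within their counting interval and 845 did not against other cells, and 1766 and 526 against the AZD4547 library. Of list medians, 321 moved by less than 0.25 and 19 by more, and 253 and 11. Values at 0.75 ng/ml rest on 38 members, and genes with few UMIs there have wide intervals. The limits are on raw UMIs, so that shallow cells expressing Cdkn2a are missed. Doublets and free RNA were not removed.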

Other observations

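Further gene lists, read with the rule of a mean of at least 10 CPM and a 2-fold ratio, were compared between members and the other kept cells. Of 17 immediate early and stress genes, 5 of 14 measured were higher without FGF2 and 6 of 13 at 0.75 ng/ml, with none lower. Jun, a subunit of AP-1, was at 208 and 113 CPM in members and 78.5 and 42.6 CPM in others, and Gadd45a, a gene of the response to DNA damage, at 61.9 and 76.1 CPM against 26.1 and 23.6 CPM. Among antigen presentation genes, B2m, the light chain of class I molecules, was at 119 and 143 CPM in members and 51.6 and 50.5 CPM in others, and Psmb10, a subunit of the immunoproteasome, was lower at 16.7 and 20.5 CPM against 38.7 and 59.6 CPM. Of 18 interferon-stimulated genes, 3 were measured in each library, with none higher and Ifitm1 lower. Of the 10 parietal endoderm genes, the matrix genes Sparc, Col4a1 and Col4a2 were higher among 5 measured, and Sparc was at 814 and 844 CPM in members, 257 and 156 CPM in others and 878 CPM in the AZD4547 library. In the retinoic acid list (12 genes), 5 were measured without FGF2, of which the receptor gene Rarg and the binding protein genes Crabp1 and Crabp2 were lower and none higher. Of 8 measured at 0.75 ng/ml, these and Cyp26a1, which degrades retinoic acid, were lower, and Aldh1a2, which makes it, was higher at 24.2 against 0.886 CPM. Crabp2 was at 25.3 and 32.2 CPM against 114 and 117 CPM.

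Among ligands, Wnt3 was the higher Wnt gene in both libraries, at 44.4 and 29.3 CPM in members, 16.6 and 14.6 CPM in others and 50 CPM in the AZD4547 library, and Wnt5a was at 49.9 and 32.9 CPM against 84.1 and 111 CPM. Of 17 glycolysis genes, all were measured, and 3 were higher without FGF2 and 2 at 0.75 ng/ml. Slc16a3, a lactate transporter, was at 46 and 41.7 CPM in members, 20.2 and 21.6 CPM in others and 11.5 CPM in the AZD4547 library. No gene of the cardiac and pharyngeal mesoderm list reached a level to be measured. Of the 12 fibroblast genes, Col1a2 and Col3a1 were measured and higher without FGF2, and Col1a2 alone at 0.75 ng/ml.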
